A study of Mus musculus with 21 samples.

Results

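The enteroendocrine cell genes described here are 10 genes of the hormone-secreting cells of the gut epithelium: Chga, Chgb, Gcg, Pyy, Insl5, Sst, Cck, Nts, Tph1 and Neurod1. They were taken by gene symbol from the table of counts per gene, and the rule names symbols (gut hormones, granins, serotonin synthesis and Neurod1) without using a measured value. All 10 were among the 24062 genes of the table, and all 10 passed the filter on low counts that left 15936 genes for testing.

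Colon RNA from C57BL/6 mice was sequenced after ribosomal RNA removal in 21 libraries, which form 7 groups of 3. The mice were wild-type or carried App NL-G-F, a knock-in that places mutations linked to familial Alzheimer's disease in the mouse's own App gene. The series asks why the carcinogen azoxymethane with the colitis agent dextran sulfate sodium (AOM/DSS) had another outcome in App mutant mice. The groups were normal colon and AOM/DSS tumours of wild-type males, of App NL-G-F males and of wild-type females, and normal colon of App NL-G-F females, and no tumour of App NL-G-F females was analysed here. The labels mark all normal libraries as Non-treatment, whereas the series text speaks of normal tissue beside tumours or of colon that formed none. AOM/DSS exposure and tumour therefore cannot be told apart in the comparisons of tumour with normal colon. The labels name the knock-in libraries KIKI, and the age of the mice, their number and any pooling are not given in the sources used here. Since nothing says that libraries came from separate animals, the p-values measure the spread between these libraries.

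Enteroendocrine cells are scattered cells of the gut lining that descend, like goblet and tuft cells, from the secretory branch of the crypt progenitors. The transcription factor Neurog3 starts their fate, Neurod1 acts after it, and the mature cells store hormones in dense granules with the chromogranins A and B. In the colon, L cells make glucagon-like peptides (Gcg), peptide YY (Pyy) and insulin-like peptide 5 (Insl5), enterochromaffin cells make serotonin with Tph1, and D cells make somatostatin (Sst), while cholecystokinin (Cck) and neurotensin (Nts) are hormones mainly of the small intestine.

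The promoters of members whose levels are set side by side are shown to let their control sequences be compared. RefSeq gave 13 start sites for the 10 genes on build GRCm38.p6, and the 250 bases before each were searched on both strands for CAGATG, an E-box of the kind bound by basic helix-loop-helix factors such as Neurod1, and for TGACGT, the core of the cAMP response element. CAGATG (or CATCTG) occurred in 3 of the 13 windows and in 14.4% of all 32851 promoter windows of the same length. TGACGT (or ACGTCA) occurred in 3 of the 13 and in 6.47% of all. The first motif lies before Gcg, Cck and the second of the Insl5 start sites, and the second lies before both granins and Sst. In Chgb and Sst the motif overlaps its own reverse complement, so that it is found on both strands. Motifs are in capitals, and each sequence runs 5′ to 3′ on the strand of its gene. For Gcg (chr2:62483654-62483903, minus strand), Cck (chr9:121495695-121495944, minus strand) and Chga (chr12:102554691-102554940, plus strand) the whole window is given. For Insl5 (chr4:103026889-103026918, minus strand), Chgb (chr2:132781559-132781588, plus strand) and Sst (chr16:23890874-23890903, minus strand) 30 bases around the motif are given.
Gcg: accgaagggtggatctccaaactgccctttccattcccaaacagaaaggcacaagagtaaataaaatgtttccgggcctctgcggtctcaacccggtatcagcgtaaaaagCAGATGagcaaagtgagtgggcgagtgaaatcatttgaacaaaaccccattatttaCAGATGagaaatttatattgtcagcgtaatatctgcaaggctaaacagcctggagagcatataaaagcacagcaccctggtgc
Cck: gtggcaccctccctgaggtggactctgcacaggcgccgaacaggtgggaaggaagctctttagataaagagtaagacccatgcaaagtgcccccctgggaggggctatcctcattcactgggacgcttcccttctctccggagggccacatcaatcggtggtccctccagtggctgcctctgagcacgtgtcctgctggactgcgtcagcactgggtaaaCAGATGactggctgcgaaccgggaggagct
Chga: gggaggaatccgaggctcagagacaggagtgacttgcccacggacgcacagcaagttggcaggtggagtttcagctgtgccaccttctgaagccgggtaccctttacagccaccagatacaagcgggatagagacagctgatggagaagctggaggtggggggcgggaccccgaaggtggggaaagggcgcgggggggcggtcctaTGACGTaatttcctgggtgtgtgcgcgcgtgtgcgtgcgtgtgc
Insl5: gtgagatgtgttCAGATGaccgagtgagca
Chgb: gggctgctccgTGACGTCAgggctgagcga
Sst: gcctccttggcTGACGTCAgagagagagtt
The Gcg window holds the E-box at both -139 and -83 from the start site, the Insl5 window at -178 and the Cck window at -30. The cAMP-type motif lies at -44 before Chga, at -72 before Chgb and at -48 before Sst. A match is a description of the letters and says nothing about binding.

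Library totals ran from 3414123 counts in wild-type male tumour replicate 2 to 26174008 in wild-type female normal replicate 1. Levels are counts scaled to library size (CPM) with TMM-scaled sizes, and 3 counts, taken as the floor, equalled 0.127 CPM in the largest library and 0.873 in the smallest. App itself had a mean of 943 ± 53.0 CPM over the 3 wild-type male tumours (SD) and 627 ± 88.1 over the 3 App NL-G-F male tumours (SD), and these gene counts do not show which allele was read. Epithelial markers summed to between 5954 and 10970 CPM in the 21 libraries. Smooth muscle markers varied more: their sum ran from 2222 to 10827 CPM in normal colon and from 270.3 to 1277 in tumours, and their part in the differences described here was not tested. In such bulk tissue, fewer enteroendocrine cells and less RNA per cell cannot be told apart.

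Per kilobase of longest transcript, Pyy had the highest mean level of the 10 genes in each of the 7 groups. In wild-type female normal colon its level was 169 CPM per kilobase, followed by Insl5 at 95.4, Chga at 34.99, Chgb at 23.5, Gcg at 17.7 and Tph1 at 10.3. Sst stood at 2.73, Neurod1 at 2.38, Cck at 0.939 and Nts at 0.187 on the same scale. The small-intestinal hormones Cck and Nts were the least abundant members in that group, at 10 counts or fewer in each of its 3 libraries. In wild-type male tumours Pyy stood at 50.1 CPM per kilobase, Chgb at 3.999, Chga at 3.93, Nts at 3.72 and Insl5 at 2.59. The Nts value was 1.501 without wild-type male tumour replicate 2, below Insl5, and per kilobase of all exons joined Chga stood at 2.68, below Nts.

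**Figure D1:**
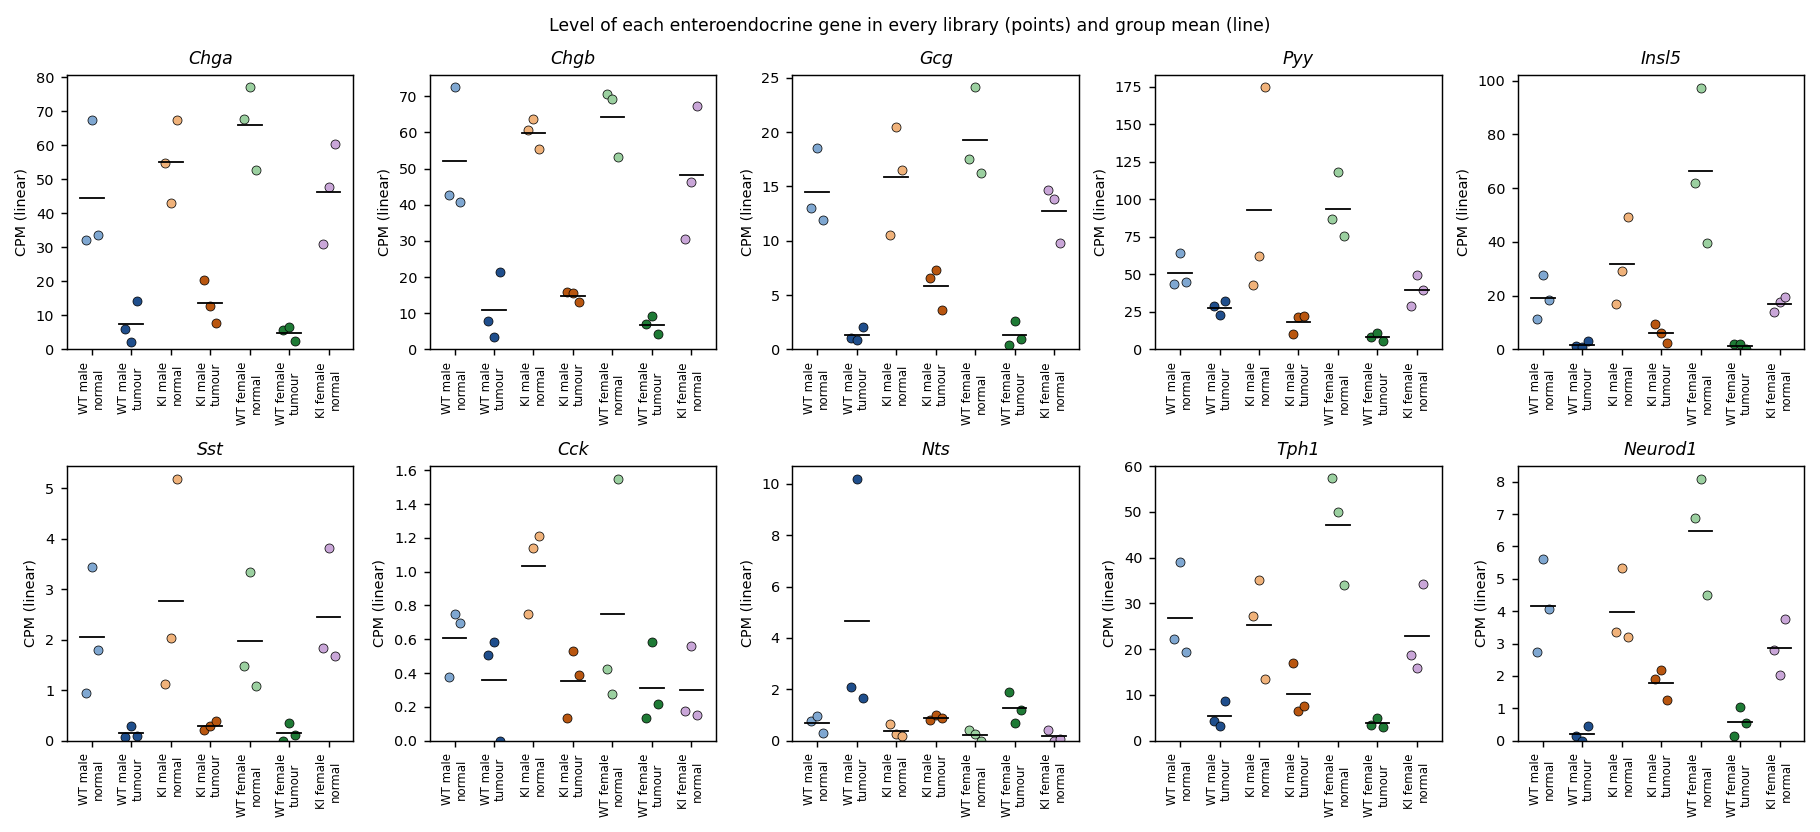
Level of each of the 10 genes in every library, in CPM on a linear axis that starts at 0 and differs between panels. Points are libraries, lines are group means, WT is wild-type and KI is App NL-G-F; in the Chga and Chgb panels every tumour library lies below every normal library, and in the Nts panel wild-type male tumour replicate 2 stands alone at 10.2 CPM.

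Of the 10 genes, 8 were lower in tumours than in normal colon of the same genotype and sex in at least 1 of the 3 comparisons, and 5 (Chga, Chgb, Gcg, Insl5 and Sst) were lower in all of them. The shares of all genes lower in at least 1 or in all of the comparisons were not counted, and those of each comparison follow. In wild-type males 7 members were lower and 1, Nts, was higher, at an adjusted p under 0.05 in edgeR's quasi-likelihood test, where 19.3% of all tested genes were lower and 16.5% higher. In App NL-G-F males 6 were lower and 0 higher, against 9.97% and 10.4% of all genes, and at an unadjusted p under 0.05 the test counted 8 in either direction. In wild-type females 8 were lower and 0 higher, against 24% and 25% of all genes, and the unadjusted count was 9 in either direction. The shares of all genes are at the adjusted threshold, and none was counted at an unadjusted p under 0.05, here or in later comparisons. The median log2 fold change of the members was -2.35, -1.76 and -3.52 in these comparisons, while the median of all tested genes was 0.01 in each.

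The levels of 9 members did not overlap between tumour and normal libraries in wild-type males, as for 52.4% of all genes. In App NL-G-F males and in wild-type females 9 members did not overlap either, against 33.6% and 58.4% of all genes. The summed level of the 10 genes ran from 170.1 to 300.1 CPM in wild-type male normal colon and from 44.24 to 83.9 in the tumours. For App NL-G-F males it ran from 218.8 to 386.9 and from 59.8 to 82.83. In wild-type females it ran from 278.4 to 448.1 and from 18.59 to 39.42. Epithelial marker sums were 8019 to 10680 CPM in wild-type male normal colon and 7040 to 7439 in the tumours, and in wild-type females 9904 to 10970 and 5954 to 7109. Those of App NL-G-F males overlapped, at 7959 to 8465 and 7097 to 8543 CPM. The median log2 fold change of the 8 epithelial markers was -0.47, -0.18 and -0.70 in wild-type males, App NL-G-F males and wild-type females.

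**Figure D2:**
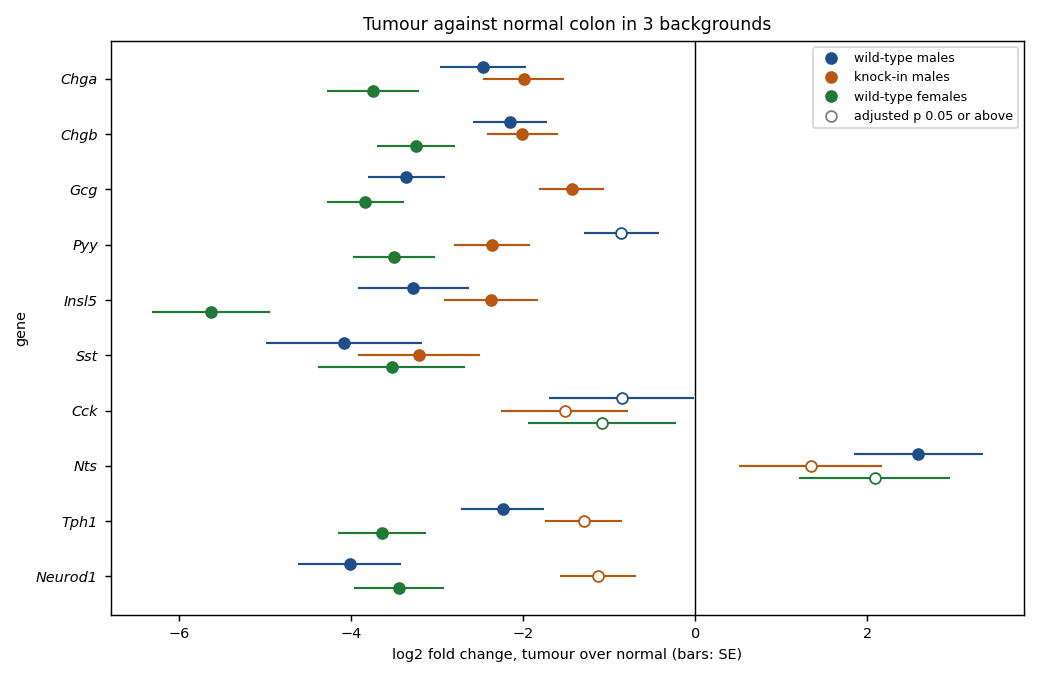
Log2 fold change of tumour over normal colon for each gene in wild-type males, App NL-G-F males and wild-type females. Bars are standard errors and open circles have an edgeR adjusted p of 0.05 or above; Nts is the only member to the right of 0 in all 3 comparisons, and Pyy in wild-type males lies at -0.86.

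The granins, acidic proteins of the hormone granules that serve as general enteroendocrine markers, fell in every comparison of tumour with normal colon. Chga stood at 32.3, 67.5 and 33.7 CPM in wild-type male normal replicates 1, 2 and 3 and at 5.98, 2.04 and 14.2 in the tumours. App NL-G-F males had 54.7, 43.0 and 67.5 CPM in normal colon and 20.5, 12.9 and 7.83 in tumours. Wild-type females had 67.8, 77.1 and 52.8 CPM and 5.57, 6.67 and 2.61. Every tumour library was below every normal library, and the wild-type female tumours were the lowest group. The log2 fold change was -2.46 (SE 0.50, adjusted p 0.00137) in wild-type males, -1.99 (SE 0.47, adjusted p 0.00985) in App NL-G-F males and -3.74 (SE 0.53, adjusted p 2.99e-05) in wild-type females, with adjusted p from edgeR here and in what follows.

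Chgb followed Chga closely in level. It stood at 42.7, 72.6 and 40.7 CPM in wild-type male normal colon and 7.92, 3.49 and 21.5 in the tumours. Chgb levels in App NL-G-F males were 60.7, 63.6 and 55.5 CPM in normal colon and 16.0, 15.5 and 13.1 in tumours. Those in wild-type females were 70.6, 69.1 and 53.3 CPM and 6.93, 9.24 and 4.24. The App NL-G-F tumours were close to each other, while the wild-type male tumours were spread from the lowest to the highest of all 9 tumours. Chgb changed on the log2 scale by -2.15 (SE 0.43, adjusted p 0.00118) in wild-type males, -2.01 (SE 0.42, adjusted p 0.00525) in App NL-G-F males and -3.25 (SE 0.46, adjusted p 2.41e-05) in wild-type females. In the 2 wild-type male groups fitted alone with the replicate number as a block, the adjusted p rose to 0.0626 for Chga and 0.0711 for Chgb. Without wild-type male tumour replicate 3 the wild-type male values were -3.27 for Chga and -3.04 for Chgb. Across the 21 libraries, Pearson's r between log2 levels of Chga and Chgb was 0.99, and 0.92 after centring on the group means, a description of libraries that share their depth and tissue makeup.

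Gcg, the precursor of glucagon and of the glucagon-like peptides, fell further in wild-type than in App NL-G-F tumours by value. It stood at 13.0, 18.6 and 11.9 CPM in wild-type male normal colon and 1.08, 0.873 and 2.03 in the tumours. App NL-G-F males had 10.6, 20.4 and 16.5 CPM in normal colon and 6.53, 7.28 and 3.62 in tumours, and wild-type females 17.5, 24.1 and 16.3 and 0.407, 2.57 and 0.979. No tumour library reached any normal library, and the App NL-G-F tumours lay above all 6 wild-type tumours. For Gcg the log2 fold change was -3.36 (SE 0.45, adjusted p 3.25e-05) in wild-type males, -1.44 (SE 0.38, adjusted p 0.0142) in App NL-G-F males and -3.84 (SE 0.45, adjusted p 2.79e-06) in wild-type females. Without App NL-G-F male tumour replicate 3 the App NL-G-F value had an adjusted p of 0.0512, and without wild-type female tumour replicate 2 the female value was -4.73. The interaction of genotype and tumour in males was 1.92 (SE 0.58, adjusted p 0.0712) and did not pass the threshold in edgeR, although DESeq2's Wald test gave it an adjusted p of 0.0156.

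Pyy, the appetite-restraining hormone of L cells, behaved differently from Gcg in wild-type males. It stood at 43.7, 64.1 and 45.1 CPM in their normal colon and 28.7, 22.7 and 32.1 in their tumours, so the groups did not overlap, yet the log2 change of -0.86 (SE 0.43, adjusted p 0.133) did not pass the threshold. When only these 2 groups were fitted, the adjusted p was 0.0122. Pyy in App NL-G-F males stood at 42.7, 62.2 and 175 CPM in normal colon and 10.3, 21.8 and 22.3 in tumours, and in wild-type females at 86.9, 118 and 75.4 and 8.01, 11.2 and 5.55. The App NL-G-F normal libraries were widely spread, with replicate 3 far above the others, and the female tumours lay below all wild-type male tumours. The log2 fold change was -2.36 (SE 0.44, adjusted p 0.00337) in App NL-G-F males and -3.50 (SE 0.48, adjusted p 2.16e-05) in wild-type females, and with only the App NL-G-F male groups in the fit the adjusted p was 0.0867. The App NL-G-F value was -1.54 without normal replicate 3 and -1.62 in limma voom. The interaction of sex and tumour in wild-type mice was -2.64 (SE 0.63, adjusted p 0.0545) in the edgeR fit. It passed the threshold in 6 of 10 alternatives with all libraries kept, including DESeq2's Wald test at an adjusted p of 0.000726 and limma voom at 0.00713, and the highest adjusted p of the 10 was 0.1195. In 12 fits with 1 library left out it passed in 0, at adjusted p from 0.0586 to 0.156.

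Insl5, a relaxin-family hormone of colonic L cells, had the deepest fall of the members in wild-type females. Their normal libraries stood at 61.9, 97.4 and 39.6 CPM and their tumours at 1.90, 1.99 and 0.217. In wild-type males the levels were 11.3, 27.6 and 18.5 CPM in normal colon and 1.30, 0.873 and 3.22 in tumours, and in App NL-G-F males 16.9, 29.3 and 49.4 and 9.53, 6.15 and 2.45. All 9 tumour libraries lay below all 12 normal libraries of the series. For Insl5 the fit gave -5.63 (SE 0.69, adjusted p 7.21e-06) in wild-type females, -3.28 (SE 0.64, adjusted p 0.00107) in wild-type males and -2.37 (SE 0.55, adjusted p 0.00888) in App NL-G-F males, the last at an adjusted p of 0.0627 with only its 2 groups in the fit. The wild-type male value moved to -4.000 without tumour replicate 3, and the female value to -6.42 in limma voom and -4.79 with a covariate for libraries whose label number is 152 or more.

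Sst encodes somatostatin, which restrains the secretion of other gut hormones, and stood close to the floor in tumour libraries. Its counts in normal colon ran from 7 to 60 per library. The 3 wild-type male tumour libraries held 1 count each, the female tumour libraries 0, 3 and 1, and the App NL-G-F tumour libraries 3, 5 and 4. Against these few counts, the pooled level in wild-type male normal colon was 17.7 times that in the tumours (95% exact Poisson interval 5.85 to 87.6, from 84 and 3 counts). In wild-type females the ratio was 11.1 (95% exact Poisson interval 4.14 to 42.0, from 66 and 4 counts), and both intervals cover counting error only. Levels in App NL-G-F males were 1.12, 2.03 and 5.19 CPM in normal colon and 0.204, 0.296 and 0.392 in tumours, without overlap. The log2 fold change there was -3.21 (SE 0.71, adjusted p 0.00589), limma voom gave -2.28 at an adjusted p of 0.0894, and without normal replicate 3 it was -2.41.

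Cck, the hormone that drives gallbladder emptying, was close to the floor throughout, at 18 counts or fewer in every library. Its log2 fold change in tumours was -0.85 (SE 0.84, adjusted p 0.456) in wild-type males, -1.52 (SE 0.74, adjusted p 0.145) in App NL-G-F males and -1.09 (SE 0.86, adjusted p 0.313) in wild-type females, so that no difference was detectable at this depth. The App NL-G-F male levels of 0.748, 1.14 and 1.21 CPM in normal colon and 0.136, 0.532 and 0.392 in tumours did not overlap.

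Nts, the neurotensin precursor, was the member with a higher mean level in tumours. It stood at 0.756, 0.973 and 0.298 CPM in wild-type male normal colon and 2.09, 10.2 and 1.66 in the tumours. App NL-G-F males had 0.654, 0.253 and 0.173 CPM in normal colon and 0.817, 1.01 and 0.881 in tumours. Wild-type females had 0.423, 0.279 and 0 CPM and 1.90, 0.702 and 1.196. Tumour and normal libraries did not overlap in any of the 3 comparisons, and wild-type male tumour replicate 2 was far above all others, with 35 counts in the smallest library. The log2 fold change was 2.59 (SE 0.75, adjusted p 0.0118) in wild-type males, 1.34 (SE 0.83, adjusted p 0.254) in App NL-G-F males and 2.09 (SE 0.88, adjusted p 0.0562) in wild-type females, so that the wild-type male value alone passed the threshold. Without wild-type male tumour replicate 2 it was 1.43 at an adjusted p of 0.128, and without wild-type male normal replicate 3 it was 2.30 at 0.0584. The female value passed in 5 of 8 alternatives with all libraries kept and in 1 of 6 fits with 1 library left out, among the former library totals at an adjusted p of 0.0391 and epithelial scaling at 0.0133.

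Tph1, the enzyme that limits serotonin synthesis in enterochromaffin cells, was lower in wild-type tumours of both sexes. It stood at 22.2, 39.1 and 19.3 CPM in wild-type male normal colon and 4.32, 3.20 and 8.75 in the tumours, and in wild-type females at 57.3, 50.03 and 33.9 and 3.40, 5.03 and 2.94. In App NL-G-F males the normal libraries at 27.3, 35.2 and 13.5 CPM overlapped the tumours at 16.9, 6.39 and 7.54, because tumour replicate 1 was above normal replicate 3. The fitted Tph1 change was -2.24 (SE 0.48, adjusted p 0.00204) in wild-type males, -3.64 (SE 0.51, adjusted p 2.26e-05) in wild-type females and -1.30 (SE 0.45, adjusted p 0.0502) in App NL-G-F males. The App NL-G-F value lay just above the threshold and passed it in DESeq2's Wald test, at an adjusted p of 0.0164.

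Neurod1, the transcription factor, fell to the floor in most wild-type male tumours. It stood at 2.74, 5.62 and 4.08 CPM in their normal colon and 0.144, 0 and 0.460 in the tumours, which held 2, 0 and 5 counts. App NL-G-F males had 3.36, 5.32 and 3.20 CPM in normal colon and 1.91, 2.19 and 1.27 in tumours, and wild-type females 6.89, 8.08 and 4.49 and 0.136, 1.05 and 0.544. Normal and tumour libraries were apart in each case, with the App NL-G-F tumours between the wild-type tumours and the normal colon of males. Neurod1 changed by -4.02 (SE 0.60, adjusted p 7.54e-05) on the log2 scale in wild-type males and by -3.44 (SE 0.52, adjusted p 3.19e-05) in wild-type females, and its value in App NL-G-F males was -1.13 (SE 0.44, adjusted p 0.0739), where DESeq2 gave an adjusted p of 0.0331. Neurod1 lies within the annotated span of Cerkl on the same strand, and how any reads shared with Cerkl were counted is not given in the sources used here. It also overlaps Gm26755 on the opposite strand, a gene not analysed here. The wild-type changes were -5.08 without wild-type male tumour replicate 3 and -4.16 without wild-type female tumour replicate 2.

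Among male tumours, 3 members differed between the genotypes in edgeR: Gcg and Neurod1 were higher and Nts lower in App NL-G-F, where 9.3% of all genes were higher and 5.23% lower. At an unadjusted p under 0.05 the count was 4, with Insl5 the additional gene. Gcg was 4.15-fold higher, a log2 change of 2.05 (SE 0.45, adjusted p 0.0101), and all 3 App NL-G-F tumours exceeded all 3 wild-type tumours. Neurod1 was 7.12-fold higher at 2.83 (SE 0.61, adjusted p 0.00972), again without overlap and from 7 counts in all in the wild-type tumours. Without wild-type male tumour replicate 3, which held 5 of these counts, the Neurod1 value was 3.90. Neither call held without every library: without wild-type male tumour replicate 1 the adjusted p was 0.0585 for Gcg and 0.0604 for Neurod1, and without App NL-G-F male tumour replicate 2 it was 0.0508 for Gcg.

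The Nts difference in male tumours was -2.22 (SE 0.74, adjusted p 0.0498), and it lost the call when any of the 6 libraries was left out. With all libraries kept, the call was also lost in several alternatives. Among these were limma voom (adjusted p 0.158), only the groups compared in the edgeR fit (0.0905), epithelial scaling (0.0608) and library totals (0.0505). The Nts log2 fold change was -1.05 at an adjusted p of 0.323 without wild-type male tumour replicate 2, the library at 10.2 CPM. Insl5 was higher by value, at 1.64 (SE 0.65, adjusted p 0.0949), and Pyy lower without overlap, at -0.63 (SE 0.44, adjusted p 0.331). Chga at 0.78 (SE 0.49, adjusted p 0.288) and Tph1 at 0.86 (SE 0.48, adjusted p 0.229) overlapped between the genotypes. In all, 4 members did not overlap, as for 36.4% of all genes. The App NL-G-F tumours also differed in tissue markers: smooth muscle markers summed to 1030 to 1277 CPM there and 334.1 to 975.5 in wild-type tumours, and differentiated colonocyte markers to 3731 to 4548 and 2399 to 2970. Goblet and tuft markers with shared secretory factors summed to 5381 to 13319 CPM and 3307 to 4483. Wnt and crypt progenitor genes summed to 1438 to 2355 CPM in App NL-G-F tumours and 3006 to 3124 in wild-type tumours. In App NL-G-F male normal colon their sum was 615.6 to 1504 CPM. The part of these tissue differences in the member values was not tested.

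**Figure D3:**
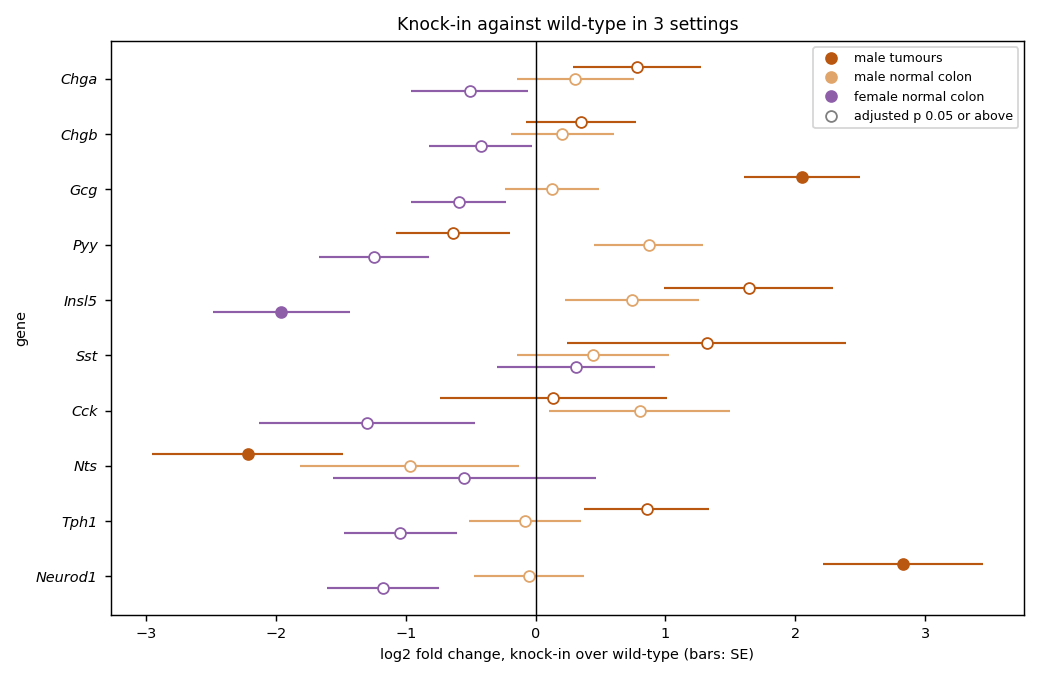
Log2 fold change of App NL-G-F over wild-type for each gene in male tumours, male normal colon and female normal colon. Bars are standard errors and open circles have an edgeR adjusted p of 0.05 or above; Gcg at 2.05 and Neurod1 at 2.83 stand to the right in male tumours, and Insl5 at -1.96 to the left in female normal colon.

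In male normal colon no member differed between the genotypes: edgeR called 0 of 10 at an adjusted p under 0.05, where 0.0126% of all genes were called. At an unadjusted p under 0.05 the count of members was also 0. DESeq2's Wald test and limma voom also called 0. The levels of all 10 members overlapped, as 7.08% of all genes did not. The largest differences by value were those of Nts at -0.97 (SE 0.84, adjusted p 1.000) and Pyy at 0.87 (SE 0.42, adjusted p 1.000), the latter with App NL-G-F male normal replicate 3 far above the others.

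In female normal colon, Insl5 was the member lower in App NL-G-F in edgeR, where 7% of all genes were lower and 8.97% higher. At an unadjusted p under 0.05, 4 members were lower. Insl5 stood at 61.9, 97.4 and 39.6 CPM in the wild-type libraries and at 14.05, 17.6 and 19.5 in App NL-G-F replicate 1 and the 2 libraries called a and b. The lowest wild-type library was above the highest App NL-G-F library, and the wild-type level was 3.89 times the other by the fit, a log2 change of -1.96 (SE 0.53, adjusted p 0.0202). The call was lost without wild-type female normal replicate 1 (adjusted p 0.0525) or replicate 2 (0.104), and without App NL-G-F replicate 1 (0.0708) or library a (0.0765).

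Pyy stood at 29.2, 49.7 and 39.9 CPM in App NL-G-F female normal colon, below every wild-type library, a log2 change of -1.24 (SE 0.43, adjusted p 0.0575). Neurod1 was lower by value without overlap, at -1.18 (SE 0.43, adjusted p 0.0720), and Gcg likewise at -0.59 (SE 0.37, adjusted p 0.284). Tph1 was -1.04 (SE 0.44, adjusted p 0.115) with overlap. The granins were nearer to each other, with Chga at -0.51 (SE 0.45, adjusted p 0.472) and Chgb at -0.42 (SE 0.40, adjusted p 0.503), and Sst at 0.31 (SE 0.61, adjusted p 0.768) was on the other side of 0. In all 4 members did not overlap, as for 37.8% of all genes. DESeq2's Wald test called 3 members lower (Insl5, Pyy and Neurod1), and limma voom called Tph1 as well. Smooth muscle markers summed to 7780 to 10827 CPM in App NL-G-F and 2222 to 5112 in wild-type libraries, and goblet and tuft markers with shared secretory factors to 10687 to 11674 and 24683 to 49832. The part of these tissue differences in the member values was not tested.

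Between the sexes, Insl5 was higher in wild-type female than male normal colon, the 1 member called in edgeR, where 5.74% of all genes were higher and 10.2% lower. Its male levels of 11.3, 27.6 and 18.5 CPM lay below all 3 female libraries, and the log2 fold change was 1.80 (SE 0.52, adjusted p 0.0290). It lost the call without wild-type female normal replicate 1 (adjusted p 0.0661) or 2 (0.139), without wild-type male normal replicate 1 (0.132) or 3 (0.0622), and with the replicate block (0.0583). The same 3 wild-type female normal libraries entered the genotype comparison of female normal colon and the female tumour comparison. These Insl5 results are therefore not independent. Their Insl5 mean was 66.3 CPM, against 31.9 in App NL-G-F male, 19.1 in wild-type male and 17.1 in App NL-G-F female normal colon. Pyy was the other member without overlap, at 0.88 (SE 0.42, adjusted p 0.165), and 2 members without overlap compare with 34.2% of all genes. Wnt and crypt progenitor genes moved with sex in these libraries: 9 of 10 were lower in females, and their sum was 321.0 to 347.4 CPM in females and 556.5 to 1294 in males, with no test of their part in the Insl5 difference.

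In App NL-G-F normal colon edgeR called 0 members between the sexes at an adjusted p under 0.05, where 0.584% of all genes were called. DESeq2's Wald test and limma voom called 0 as well. At an unadjusted p under 0.05 the edgeR count was 2 (Pyy and Cck), a level at which all genes were not counted. Cck was the 1 member without overlap between these groups, as for 19.7% of all genes. In wild-type tumours edgeR again called 0 at an adjusted p under 0.05, where 0.86% of all genes were called. The unadjusted count there was 2 (Pyy and Nts), again with all genes not counted at that level. Pyy was lower in female tumours without overlap, at -1.77 (SE 0.47, adjusted p 0.0660), and passed the threshold in DESeq2's Wald test (adjusted p 0.00220), in limma voom (0.0130) and with only these groups in the fit (0.0111). It was the 1 member without overlap there, as for 31.2% of all genes. The difference between the sexes in the genotype contrast of normal colon was -2.70 (SE 0.74, adjusted p 0.0625) for Insl5 and -2.11 (SE 0.60, adjusted p 0.0725) for Pyy, neither past the threshold in edgeR. No member passed the threshold in the interactions of genotype by tumour, sex by tumour and sex by genotype, where 1.51%, 1.12% and 2.54% of all genes did. The member counts at an unadjusted p under 0.05 were 3, 2 and 2, with no share of all genes counted at that level. DESeq2's Wald test called 2, 1 and 2 members in the same interactions.

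The members were also set against Chga within each library, as the log2 ratio of the gene's count to that of Chga, with an exact two-sided permutation test whose smallest p for 3 against 3 libraries is 0.1. The Chgb ratio was 0.26 ± 0.15 in wild-type male normal colon and 0.58 ± 0.17 in the tumours (mean ± SD, n = 3 each), with overlap (exact permutation p 0.2). In wild-type females it was -0.03 ± 0.11 in normal colon and 0.49 ± 0.19 in tumours, without overlap (exact permutation p 0.1). The Pyy ratio was 0.26 ± 0.29 in wild-type male normal colon and 2.27 ± 1.11 in their tumours, without overlap (exact permutation p 0.1). Its highest value, 3.39, came from tumour replicate 2, which held 7 Chga counts. The Pyy ratio in App NL-G-F males was 0.52 ± 0.86 and 0.42 ± 1.28, with overlap (exact permutation p 1). The Insl5 ratio in wild-type females was -0.07 ± 0.38 in normal colon and -2.18 ± 0.97 in tumours, without overlap (exact permutation p 0.1). In female normal colon of the App NL-G-F mice the Insl5 ratio was -1.40 ± 0.24 and did not overlap the wild-type libraries either (exact permutation p 0.1). The Gcg ratios of -1.19 ± 0.42 in App NL-G-F and -2.10 ± 0.89 in wild-type male tumours overlapped (exact permutation p 0.3). The Neurod1 ratios in the same tumours, -2.84 ± 0.49 and -4.59 ± 0.61, did not overlap (exact permutation p 0.1). Those of Nts, -3.77 ± 0.76 and -0.77 ± 2.73, did not overlap either (exact permutation p 0.1), and the ratios of the remaining members overlapped. The ratios described are a choice among those computed, and no share without overlap was counted over all genes.

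**Figure D4:**
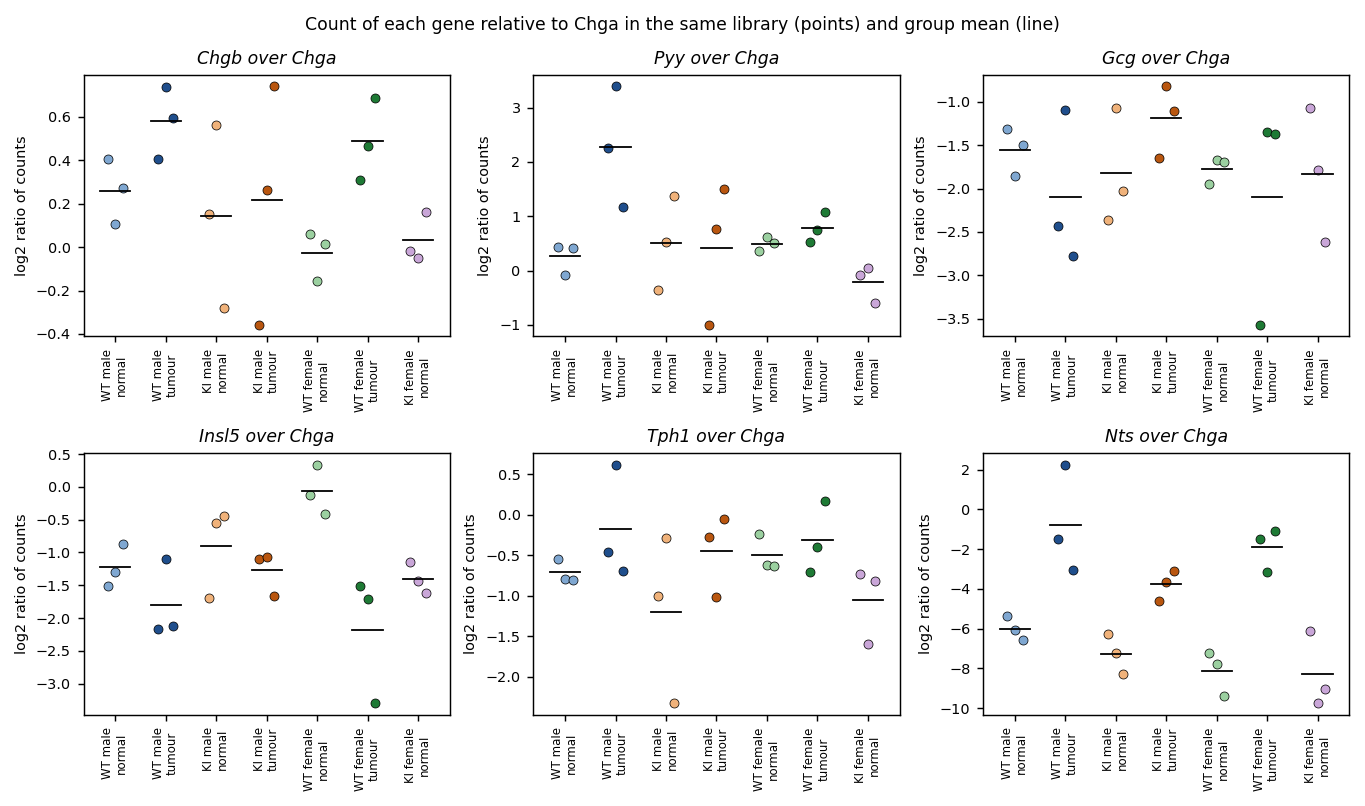
Log2 ratio of the count of 6 genes to the count of Chga in the same library, after adding 0.5 to both counts. Points are libraries and lines are group means, WT is wild-type and KI is App NL-G-F; the wild-type male tumours stand above their normal colon in the Pyy panel, and all tumours stand above all normal libraries in the Nts panel.

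Of the other transcription factors of the enteroendocrine lineage, more were called lower than higher in tumours. Of 18 tested, 10 were lower in wild-type males, 6 in App NL-G-F males and 13 in wild-type females, and 2, 1 and 2 were higher. Among all genes 19.3%, 9.97% and 24% were lower and 16.5%, 10.4% and 25% higher. The summed level of the list went the other way in wild-type mice, and in female tumours most of it was Prox1. Prox1 had a mean of 476 CPM there, beside a mean of 544 CPM for the sum of the whole list. The sum was 108.3 to 264.6 CPM in male normal colon and 543.9 to 694.2 in their tumours. Female values were 92.29 to 111.4 and 505.1 to 611.4 CPM. In App NL-G-F males the sums overlapped, at 138.1 to 308.5 and 271.4 to 473.0 CPM. Neurog3, the factor that opens the lineage, was lower in tumours at -2.21 (SE 0.62, adjusted p 0.00968) in wild-type males and -1.86 (SE 0.53, adjusted p 0.0209) in App NL-G-F males. In wild-type females Neurog3 was called lower as well, with 10 to 22 counts in normal libraries and 0 or 1 in tumours, too few for a fold change. Nkx2-2, a factor of hormone cell identity, was lower at -2.51 (SE 0.55, adjusted p 0.00180) and -1.60 (SE 0.48, adjusted p 0.0252) in the same males, and it was called lower in females, with 14 to 114 counts in normal libraries and 2 or 3 in tumours. Pax6 was lower in wild-type females at -2.92 (SE 0.72, adjusted p 0.00259), and its values in males were -1.33 and -1.09 at adjusted p of 0.135 and 0.209. The higher genes were Rfx3 in all 3 comparisons and Prox1 in wild-type mice, the latter at 5.75 (SE 0.81, adjusted p 3.69e-05) in females. The mean of Prox1 was 8.42 ± 4.12 CPM over the 3 normal female libraries (SD) and 476 ± 54.2 over the 3 tumours (SD), and it is also a gene of other cell types. In male tumours 1 factor, Etv1, was higher in App NL-G-F, at 1.79 (SE 0.35, adjusted p 0.00674), where 9.3% of all genes were higher. In female normal colon Rfx6 was lower at -1.77 (SE 0.42, adjusted p 0.00884) and Hhex higher at 1.49 (SE 0.42, adjusted p 0.0230), where 7% of all genes were lower and 8.97% higher.

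Of 24 tested genes that cut, store and release the hormone precursors, 16 were lower in tumours of wild-type males, 11 in App NL-G-F males and 17 in wild-type females, and 2, 0 and 3 were higher. The shares of all genes were 19.3%, 9.97% and 24% lower and 16.5%, 10.4% and 25% higher. The median log2 fold change of the 24 was -1.63, -1.12 and -1.77. Their summed level overlapped between normal colon and tumours in wild-type males, at 827.2 to 874.3 and 727.3 to 886.9 CPM, and was apart in wild-type females, at 905.4 to 1044 and 466.2 to 667.7. Of the enzymes, Cpe, which trims the cut peptides, was lower in each comparison, at -1.92 (SE 0.24, adjusted p 2.02e-05), -0.99 (SE 0.23, adjusted p 0.00763) and -1.89 (SE 0.24, adjusted p 6.03e-06). The convertase Pcsk1, which cuts proglucagon in L cells, was lower in wild-type males at -1.70 (SE 0.42, adjusted p 0.00461) and females at -1.41 (SE 0.39, adjusted p 0.00620), and in App NL-G-F males the value was -0.83 (SE 0.38, adjusted p 0.126). Pcsk2 was lower in wild-type males at -2.07 (SE 0.73, adjusted p 0.0349), had a value of -1.71 (SE 0.61, adjusted p 0.0548) in App NL-G-F males, and was called lower in wild-type females, where tumour libraries held 3 counts or fewer. On the serotonin pathway, Ddc, which completes the synthesis, was lower at -1.18 (SE 0.24, adjusted p 0.00119) in wild-type males and -1.78 (SE 0.24, adjusted p 1.35e-05) in females. Slc18a1, the vesicle transporter for serotonin in enterochromaffin cells, went the other way, at 1.64 (SE 0.44, adjusted p 0.00902) and 2.28 (SE 0.47, adjusted p 0.000711), with a mean of 18.9 ± 10.48 CPM over the 3 normal male libraries (SD) and 59.5 ± 4.24 over the 3 tumours (SD). Cadps, a protein that primes dense-core vesicles for release, was also higher in wild-type tumours, at 2.29 (SE 0.77, adjusted p 0.0315) in males and 2.22 (SE 0.80, adjusted p 0.0314) in females. Scg2, a further granin, was lower in each comparison, at -2.68 (SE 0.38, adjusted p 4.81e-05), -1.57 (SE 0.33, adjusted p 0.00514) and -3.81 (SE 0.41, adjusted p 1.07e-06). In male tumours 3 of the 24 genes were higher in App NL-G-F and 0 lower, where 9.3% of all genes were higher, with Scg2 at 1.198 (SE 0.38, adjusted p 0.0428) and Cpe at 0.83 (SE 0.24, adjusted p 0.0295).

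Of 11 tested genes for other gut hormones and peptides, 5, 5 and 6 were lower in tumours of wild-type males, App NL-G-F males and wild-type females, and 1, 0 and 0 higher. Beside these, 19.3%, 9.97% and 24% of all genes were lower and 16.5%, 10.4% and 25% higher. Ppy, for pancreatic polypeptide, lies 5357 bases from Pyy and was lower at -3.66 (SE 0.76, adjusted p 0.00144), -2.41 (SE 0.61, adjusted p 0.0128) and -4.47 (SE 0.69, adjusted p 4.89e-05). It was also lower in App NL-G-F than in wild-type female normal colon, at -2.72 (SE 0.60, adjusted p 0.00609), with a mean of 22.04 ± 11.6 CPM over the 3 wild-type libraries (SD) and 3.36 ± 1.41 over the 3 App NL-G-F libraries (SD). Tac1, the substance P precursor, was lower there too, at -1.45 (SE 0.36, adjusted p 0.0111). In wild-type female compared with male normal colon, Ppy was higher at 1.82 (SE 0.57, adjusted p 0.0378) and Tac1 at 1.26 (SE 0.35, adjusted p 0.0214). The genotype and sex comparisons share the wild-type female normal libraries and are not independent.

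Receptors and transporters for the members' products were tested where they were abundant enough, 16 of 31. In tumours 10, 6 and 11 of them were lower in wild-type males, App NL-G-F males and wild-type females, and 1, 0 and 2 were higher. For all genes the shares were 19.3%, 9.97% and 24% lower and 16.5%, 10.4% and 25% higher. The serotonin transporter Slc6a4 was lower in each, at -2.87 (SE 0.47, adjusted p 0.000205), -1.78 (SE 0.42, adjusted p 0.00858) and -3.34 (SE 0.48, adjusted p 2.36e-05). The serotonin receptor Htr4 was lower at -3.22 (SE 0.38, adjusted p 1.54e-05), -1.28 (SE 0.33, adjusted p 0.0137) and -3.69 (SE 0.37, adjusted p 9.64e-07), and it was higher in App NL-G-F than in wild-type male tumours at 2.11 (SE 0.38, adjusted p 0.00445). Htr3a, the ion-channel serotonin receptor of enteric neurons, had 0 counts in every wild-type tumour library of both sexes and 12 to 30 in wild-type male normal colon. Of the somatostatin receptors, Sstr1 was lower at -3.52 (SE 0.62, adjusted p 0.000453), -2.03 (SE 0.55, adjusted p 0.0186) and -3.54 (SE 0.61, adjusted p 0.000163), whereas Sstr2 passed the threshold in none of the 3, with log2 fold changes of -0.47, -0.94 and -1.01. The peptide YY receptors split in wild-type males: Npy1r was lower at -2.40 (SE 0.50, adjusted p 0.00137) and Npy2r higher at 2.28 (SE 0.56, adjusted p 0.00437), and in wild-type females Npy1r was -1.41 (SE 0.47, adjusted p 0.0198) and Npy2r 2.92 (SE 0.65, adjusted p 0.00113). The cholecystokinin receptor Cckar was called lower in all 3 comparisons, with 2 counts or fewer in every tumour library and 3 to 21 in normal colon. Glp2r was lower in wild-type females at -1.61 (SE 0.46, adjusted p 0.00729). The receptors Glp1r, Rxfp4 (for Insl5), Cckbr and Ntsr1 were too low to be tested.

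Of 14 tested sensors by which enteroendocrine cells read nutrients and microbial products, 7, 3 and 10 were lower in the 3 tumour comparisons and 0, 1 and 1 higher, where 19.3%, 9.97% and 24% of all genes were lower and 16.5%, 10.4% and 25% higher. The higher gene was Trpa1, an irritant-sensing channel of enterochromaffin cells, at 1.90 (SE 0.41, adjusted p 0.00572) in App NL-G-F males and 1.48 (SE 0.43, adjusted p 0.00773) in wild-type females. In App NL-G-F female normal colon 3 were lower than in wild-type, where 7% of all genes were lower. Among them were the fatty acid receptor Ffar4 at -2.30 (SE 0.30, adjusted p 0.000129) and the short-chain fatty acid receptor Ffar2 at -2.07 (SE 0.59, adjusted p 0.0235). Ffar4 was also higher in wild-type female than male normal colon, at 1.06 (SE 0.29, adjusted p 0.0183), with the same wild-type female libraries.

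Markers of other cell types of the colon were counted in the same tumours, beside the shares of all genes just given. All 10 smooth muscle markers were lower in each of the 3 comparisons. Of 10 differentiated colonocyte markers 9, 6 and 10 were lower, and of 15 goblet, tuft and shared secretory genes 9, 6 and 10 were lower and 1, 0 and 1 higher. Of 10 Wnt and crypt progenitor genes 8, 1 and 10 were higher. Of 13 tested enteric neuron markers 8, 6 and 10 were lower and 0, 0 and 1 higher. Of 11 tested mast cell markers 1 was lower in each comparison and 2, 0 and 5 were higher. The share called higher was near that of all genes in wild-type males, below it in App NL-G-F males and above it in wild-type females. Neurons share granins, peptides and receptors with enteroendocrine cells, and mast cells also express Tph1. Summed enteric neuron markers ran from 48.75 to 69.12 CPM in wild-type male normal colon and from 32.14 to 61.5 in the tumours, so that the sums overlapped. App NL-G-F males had 60.14 to 73.74 CPM in normal colon and 39.04 to 88.00 in tumours, also with overlap. Wild-type females had 38.17 to 52.03 and 50.06 to 70.46 CPM, with a higher mean in tumours (61.6) than in normal colon (44.4). Mast cell markers ran from 81.38 to 118.5 CPM in wild-type male normal colon and from 88.72 to 156.7 in the tumours. How much these cells added to the member values was not tested.

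Likeness to the members was measured as Pearson's r between a gene's log2 CPM and the mean standardised log2 CPM of the 10 genes across the 21 libraries, a description of libraries that share depth and tissue makeup. Of genes outside the list, Syt7 (r = 0.97), a synaptotagmin of regulated secretion, and Ern2 (0.97), a stress sensor of secretory epithelium, were nearest, followed by Cldn14, Guca2a, Pappa2, Mcf2l, Vwa5b2, Dnah9, Hsd11b2 and Slc35a2. After centring on the group means, which removes the differences between groups, the nearest were C2cd4a (0.91), Rimbp2 (0.89) and Resp18 (0.85), followed by Chst4, Pappa2, Atp2c2, Ffar4, Hsd11b2, Creb3l1 and Spdef. Of the members themselves, which are part of the mean, Nts had an r of -0.69 and Cck 0.50, and the other 8 lay between 0.89 and 0.96.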

How the data were processed

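The deposited counts are whole-number counts of reads per gene that the authors made with featureCounts after Trimmomatic and HISAT2 on build mm10, per the submitters' processing notes; annotation, versions and strand setting are not given in the sources used here. Groups came from the sample labels. Of the count columns, 2 of App NL-G-F female normal colon share a name, so they were used as unnumbered libraries a and b of that group. All counts in the table name a gene, and 0 columns were left out.

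The 21 libraries entered a single edgeR 4.0.16 quasi-likelihood fit (R 4.3.3, limma 3.58.1) with filterByExpr by group, TMM size factors, robust dispersions and a coefficient per group. The tests were two-sided, with Benjamini-Hochberg adjustment over 15936 genes and a threshold of 0.05, in 9 comparisons of groups and 3 interactions. Log2 CPM used a prior count of 2, and ratios to Chga added 0.5 to each count. Alternatives were other scalings, filters and fits, the DESeq2 1.42.0 Wald test, limma voom, the replicate number as a block, and each library left out.

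The members and the other gene lists were chosen with earlier results of these data known. All members are named. Genes of the other lists came from a fixed set of enzymes, factors and receptors, or from up to 2 higher and 2 lower genes with the largest called change per list and comparison; which of the latter are described was chosen after their values were seen. Gene positions follow GENCODE on GRCm38, promoters RefSeq on GRCm38.p6.

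Replicate numbers come from the labels. In wild-type males, tumour and normal libraries of the same number deviated together (lowest correlation 0.169, mean 0.186), and elsewhere the lowest correlation was negative. These correlations alone do not show that the numbers pair samples, and the main fit used no pairing.

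No pair of replicates agreed within counting noise (chi-square per degree of freedom 6.60 to 63.4 over 21 pairs). On simulated data for the wild-type male comparison (15763 genes), 48% of genes changed by 1 log2 unit and 78% of those changed by 2 were recovered, with 6 false calls. The simulation changed 100 genes of each size, whereas 2622 genes were called higher and 3075 lower in the data. The adjusted threshold depends on that number, so these shares do not give the recovery in the data.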

Additional observations from a re-analysis of the deposited data

How the results depend on the processing

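Of 120 member values, 27 passed the threshold, and in 268 recomputations with all libraries kept 254 of these still passed with the same direction and 14 did not. With 1 library left out, 142 of 162 still passed and 20 did not. None of the 27 changed sign, whereas 73 recomputations of values past the threshold in neither fit did. Of the 93 others, 17 passed in at least 1 alternative. Scaling on epithelial genes moved the median of all genes by the most, to 0.55 in wild-type female tumours.

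A mean of at least 50 counts left fewer members to test and gave 5 members called in wild-type male tumours against normal colon, 1 between the genotypes in male tumours and 1 in the sex by tumour interaction. The DESeq2 Wald test called 3 members between the genotypes in female normal colon, 1 between the sexes in wild-type tumours, and 2, 1 and 2 in the interactions of genotype by tumour, sex by tumour and sex by genotype. Limma voom called 4, 1, 2, 1 and 1 in the same order, and 4 between the sexes in wild-type normal colon. With only the groups compared in the fit, the counts were 3 between the genotypes in female normal colon, 1 and 2 between the sexes in wild-type tumours and normal colon, and 1 for sex by tumour. That interaction also gave 1 with library totals and 1 with epithelial scaling. Sex by genotype gave 1, Insl5, with a covariate for libraries whose label number is 152 or more. Such numbers occur only on tumour libraries, so the covariate cannot adjust this contrast of normal colon. The Insl5 value stayed at -2.70, at an edgeR adjusted p of 0.0456. The causes of these changes were not tested, except for the filter, which removes genes.

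With each library left out in turn, the count ran from 7 to 8 in wild-type male tumours, 5 to 7 in App NL-G-F male tumours and 8 to 9 in wild-type female tumours. It ran from 0 to 3 between the genotypes in male tumours, 0 to 1 in female normal colon, 0 to 1 between the sexes in wild-type normal colon, and 0 to 2, 0 to 0 and 0 to 2 in the interactions. With the replicate block the count was 8, 6 and 9 in the tumour comparisons, 2 between the genotypes in male tumours and 0 between the sexes in wild-type normal colon, where Insl5 lost its call at an adjusted p of 0.0583. With the block and only the 2 wild-type male groups, a fit chosen after seeing the data, it was 7. The smallest library holds 3414123 counts, and Sst, Cck and Nts are limited by depth in most tumours.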

Other observations

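Genes of tuft cells, another secretory cell of the colon lining, did not move as a block in the same libraries. Avil, an actin-binding protein of tuft cells, rose in wild-type male tumours by 2.61 on the log2 scale (SE 0.54, edgeR adjusted p 0.00163) and in wild-type female tumours by 3.53 (SE 0.58, adjusted p 0.000122). Trpm5, the cation channel of tuft cell signalling, fell by 2.84 on the log2 scale in wild-type female tumours (adjusted p 0.000127), and its value in wild-type males was -0.58 (adjusted p 0.324). Dclk1, chosen after its values were seen, was lower in tumours of all 3 backgrounds, at -1.38, -0.68 and -1.51 in wild-type males, App NL-G-F males and wild-type females (adjusted p 5.43e-05, 0.0174 and 6.08e-06).

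Vip, a peptide of inhibitory nerves that relaxes gut muscle, had a mean of 9.43 ± 2.51 CPM over the 3 normal libraries of wild-type males (SD) and 0.611 ± 0.768 over their 3 tumours (SD), with an edgeR adjusted p of 0.000953. In App NL-G-F males it was lower in tumours at -1.87 (SE 0.58, adjusted p 0.0312). Over the 3 App NL-G-F male tumours the mean of Vip was 4.03 ± 4.23 CPM (SD), and it was higher there than in wild-type male tumours by 2.46 on the log2 scale (SE 0.73, adjusted p 0.0345). Gal, the galanin gene, was lower than in normal colon in App NL-G-F male tumours at -3.07 (SE 0.71, adjusted p 0.00746), with values of -2.56 (adjusted p 0.0527) in wild-type males and -0.32 (adjusted p 0.746) in wild-type females.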
